A study of Mus musculus with 2 samples.

Results

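Islet cells that held the messages of both glucagon and pancreatic polypeptide were chosen by their hormone counts from 2 single-cell libraries of mouse pancreatic islets. A cell barcode was kept with more than 2500 detected genes and under 10% of its UMIs (molecular tags that each mark 1 captured transcript) in mitochondrial genes. It was called double-positive when it had at least 100 Gcg and at least 150 Ppy UMIs per 10000, under 300 of Ins1 and Ins2 together and under 40 of Sst. Of 12900 barcodes, 398 met this rule, 187 of 7067 in the control library and 211 of 5833 in the other. The hormone levels that selected these cells are given as a description only.

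Each library came from 150 islets pooled from 4 mice aged 5 weeks, kept overnight at 37 °C in RPMI-1680 medium with serum before the cells were separated and loaded on a Chromium 3′ instrument. The control library, whose label reads wildtype, came from littermates without Cre that carried loxP-flanked Tbl1x and Tbl1xr1. The library labelled TBL/RβKO came from mice with the same floxed alleles and Cre recombinase knocked in at Ins1, a gene of insulin-producing β-cells, which directs the deletion to β-cells. TBL1X and TBL1XR1 are co-factors of transcriptional co-repressor complexes. Each group has 1 library, so replicate error is unknown, no test was run and the values describe 2 libraries only. All intervals are 95% and cover counting error only.

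Glucagon, encoded by Gcg and secreted by α-cells, raises hepatic glucose output. Pancreatic polypeptide, encoded by Ppy, comes from PP cells (also called γ-cells), which are most frequent in the head of the pancreas, and slows gastric and exocrine activity. Peptide YY, encoded by Pyy, belongs to the same peptide family as pancreatic polypeptide and is found in α-, PP and δ-cells as well as in the gut. For comparison, α-cells were defined by at least 100 Gcg and under 50 Ppy per 10000 (961 and 1169 cells in the control library and the library labelled TBL/RβKO), and PP cells by at least 150 Ppy and under 50 Gcg (134 and 234 cells), with the same insulin and Sst limits.

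The promoters of the 3 hormone genes that these cells express together are shown because 2 of them chose the cells and the other was the hormone gene highest against α-cells. Ppy (chromosome 11, 101990756 to 101992145) and Pyy (chromosome 11, 101997502 to 101998658) lie on the minus strand of GRCm39 with 5356 bases between them, whereas Gcg lies on chromosome 2 (62304873 to 62313997, minus strand). The sequences are from RefSeq on GRCm38.p6, 300 bases around the transcript start, at chr2:62483604-62483903 for Gcg, chr11:102101270-102101569 for Ppy and chr11:102107783-102108082 for Pyy (the first of 2 listed starts), all on the minus strand. Capitals mark 3 motifs searched by letters.
Gcg: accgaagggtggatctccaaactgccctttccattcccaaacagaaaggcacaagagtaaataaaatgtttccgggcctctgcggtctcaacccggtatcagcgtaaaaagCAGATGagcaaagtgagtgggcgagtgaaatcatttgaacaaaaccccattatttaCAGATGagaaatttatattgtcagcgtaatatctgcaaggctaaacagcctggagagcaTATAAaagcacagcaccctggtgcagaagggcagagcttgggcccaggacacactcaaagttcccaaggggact
Ppy: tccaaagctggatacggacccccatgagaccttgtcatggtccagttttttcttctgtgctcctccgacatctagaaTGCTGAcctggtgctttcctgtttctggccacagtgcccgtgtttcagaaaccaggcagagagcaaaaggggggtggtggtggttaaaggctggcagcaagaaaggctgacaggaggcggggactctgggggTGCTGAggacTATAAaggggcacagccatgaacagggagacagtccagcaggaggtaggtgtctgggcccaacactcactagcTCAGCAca
Pyy: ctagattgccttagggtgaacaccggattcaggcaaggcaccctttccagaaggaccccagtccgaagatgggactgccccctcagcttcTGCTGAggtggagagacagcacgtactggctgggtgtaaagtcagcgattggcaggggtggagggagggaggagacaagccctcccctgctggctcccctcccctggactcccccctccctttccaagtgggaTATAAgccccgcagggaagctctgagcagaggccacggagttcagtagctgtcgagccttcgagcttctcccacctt

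TATAA, the core of a TATA box, was searched on the gene's strand and was found in all 3 promoters, against 17.5% of 32851 promoters in the table. TGCTGA, the core letters of a Maf recognition element, was searched on both strands. It occurred 3 times in the Ppy promoter (once on the opposite strand, as TCAGCA), 1 time in that of Pyy and 0 times in that of Gcg, and was held by 19.5% of all promoters. CAGATG, an E-box of the kind bound by basic helix-loop-helix factors, was searched on both strands and occurred 2 times in the Gcg promoter and in neither of the others, against 17.2% of all promoters. No motif matches overlapped. These are matches of letters, not sites shown to be bound.

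Both hormones were abundant in the double-positive cells. In the control library their Gcg ran from 111 over a median of 1478 to 4335 UMIs per 10000, and their Ppy from 150 over 476 to 3728. In the library labelled TBL/RβKO Gcg ran from 102 over 994 to 3615 and Ppy from 150 over 417 to 4142. Gcg exceeded Ppy in 135 of 187 (72.2%) and 135 of 211 (64.0%) cells. α-cells had a median of 1897 and 1457 Gcg, and PP cells 4157 and 3330 Ppy. The double-positive cells thus ran from the α-cell level of Gcg with little Ppy to the PP-cell level of Ppy with lower Gcg. Their lowest Gcg, 111 and 102, still stood above the PP-cell medians of 7.30 and 6.05.

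**Figure D1:**
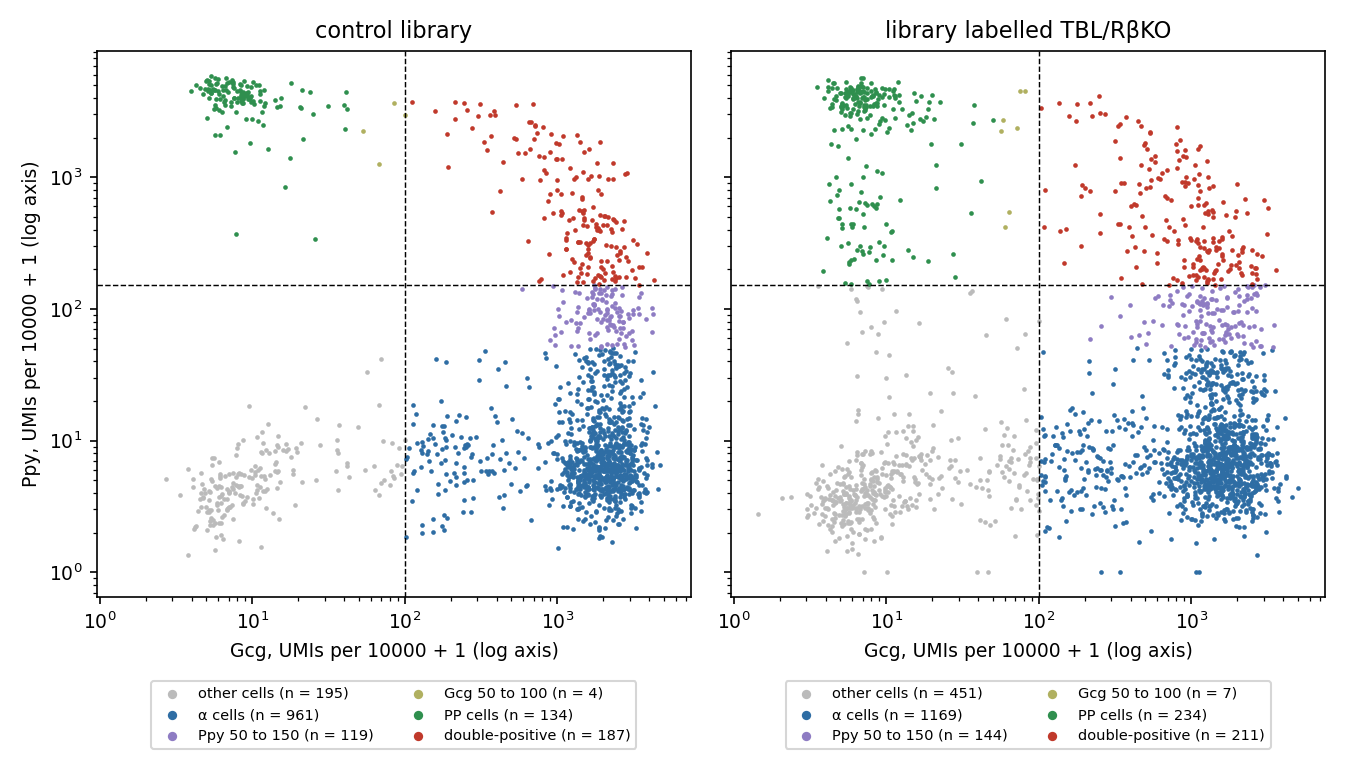
Ppy against Gcg per cell (UMIs per 10000 plus 1, both on log axes) for cells under the insulin and Sst limits in each library; dashed lines are the limits. Double-positive cells (187 and 211) form a band that extends from the α-cells towards the PP cells. Between this band and the PP cells few cells lie, with 4 and 7 at 50 to 100 Gcg. The first quartile of PP-cell Ppy stands at 3535 in the control library and 811 in the other.

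The lower edge of the group was a threshold in a continuous range, while the Gcg edge was sparsely filled. The Ppy value nearest the limit was 150.1 inside and 149.7 outside in the control library, and 150.3 and 149.8 in the other, where the cells outside were α-side cells by Gcg. Within 20% of the Ppy limit lay 21 cells above and 25 below in the control library and 22 above and 28 below in the other. Within 20% of the Gcg limit lay 1 above and 2 below, and 3 above and 0 below. A further 119 and 144 cells had α-cell Gcg with 50 to 150 Ppy, and 4 and 7 cells had PP-cell Ppy with 50 to 100 Gcg. These in-between cells belong to none of the 3 groups.

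The hormone limits stood above the median hormone levels of non-endocrine cells, though single cells among these passed them. Non-endocrine cells (macrophage, stromal, endothelial and B-cell markers; 152 and 246 cells) had a median of 6.67 and 6.14 Gcg and 3.25 and 2.93 Ppy per 10000. The Gcg limit was passed by 6 of 152 (3.95%) of them in the control library and 6 of 246 (2.44%) in the other, and the Ppy limit by 0 and 2. Of them 0 of 152 passed both limits in the control library, which allows a share of up to 1.97% (3 of 152 cells), and 2 of 246 (0.813%, 0.0986 to 2.91) in the other. Whether these counts come from free RNA was not tested. Their median depths were near those of the double-positive cells, at 22398 UMIs in the control library. Insulin in the double-positive cells, a median of 86.2 and 16.3 per 10000, lay near that of non-endocrine cells (78.3 and 13.5).

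Among endocrine cells (any cell past at least 1 hormone limit) the double-positive cells made up 4.11% (3.55 to 4.73, 187 of 4552) in the control library and 5.66% (4.94 to 6.45, 211 of 3728) in the library labelled TBL/RβKO. The shares lay 1.55 points apart (0.621 to 2.51). Their share depended on what it was counted over. Of all cells past the Gcg limit they were 11.6% (of 1618) and 10.99% (of 1920), a difference of -0.568 points (-2.68 to 1.51). Of all cells past the Ppy limit, which include insulin- and Sst-positive cells, they were 27.7% (of 675) and 14.7% (of 1440), a difference of -13.1 points (-16.95 to -9.28). α-cells went from 21.1% to 31.4% of endocrine cells and PP cells from 2.94% to 6.28%. Insulin-positive cells are part of these denominators, so a share moves with their number too. With both hormone limits doubled the difference over endocrine cells was 0.525 points (-0.222 to 1.30).

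A barcode that holds an α-cell and a PP cell together would also meet the rule, so the depth of the double-positive cells is given beside their identity. Their UMIs per cell ran from 8220 over a median of 20989 to 120801 in the control library and from 7928 over 22479 to 113308 in the other. α-cells had medians of 18872 and 17899, and PP cells 32380 and 32370. The sum of the α-cell and PP-cell medians, 51252 and 50269, was reached by 14 of 187 (7.49%) and 19 of 211 (9.005%) double-positive cells, and 153 and 166 of them lay under the PP-cell median alone. Counting only UMIs outside the hormone genes, 19 (10.2%) and 25 (11.8%) reached the sum of the medians. Counted in this way, the medians were 14264 and 16568 in double-positive cells, 14447 and 14731 in α-cells and 13991.5 and 17514 in PP cells. The place of double-positive cells under the PP-cell median of all UMIs thus rests in part on hormone UMIs. At least 6000 detected genes were found in 38 (20.3%) and 50 (23.7%) double-positive cells, against 11.3% and 9.84% of α-cells and 15.7% and 26.9% of PP cells. Doublet scores (Scrublet) marked 4 (2.14%) and 10 (4.74%) of them, against 1.35% and 0.770% of α-cells, 0.746% and 2.56% of PP cells and 6.15% and 5.12% of all kept cells. The marked share was thus above that of α- and PP cells in both libraries. How many of these barcodes are pairs of cells was not tested, and counts without the marked barcodes are given under the processing alternatives.

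**Figure D2:**
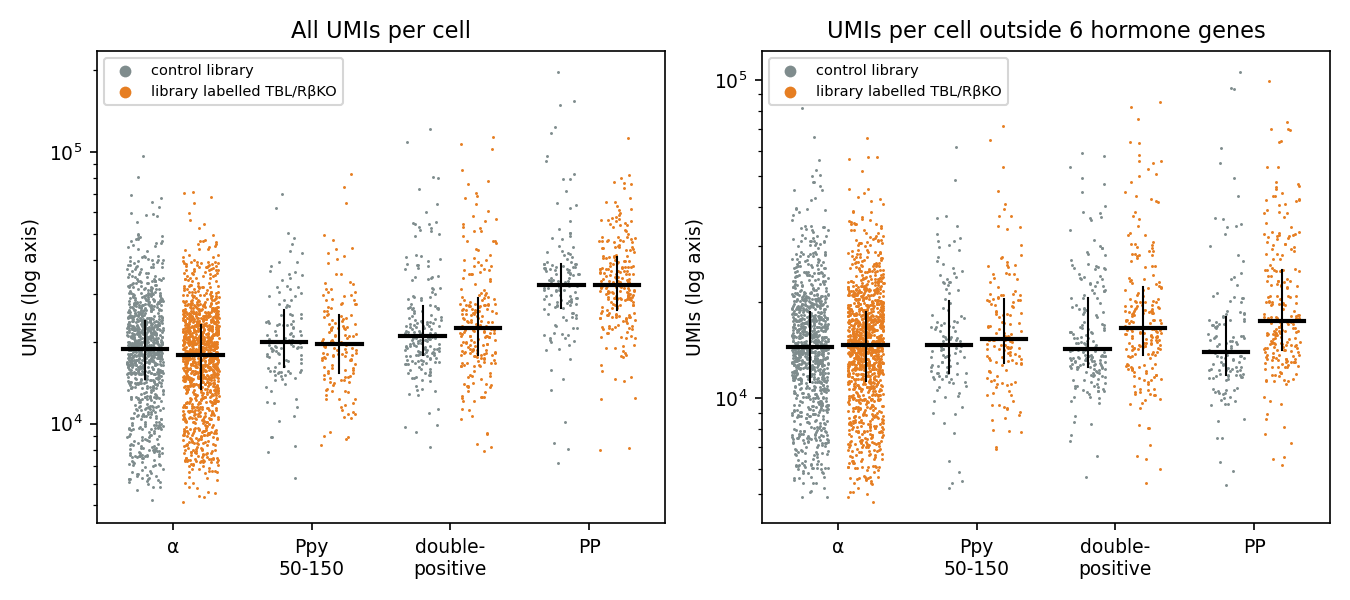
UMIs per cell on a log axis for α-cells, double-positive cells and PP cells of each library; points are cells and bars are medians. Over all UMIs the double-positive medians (20989 and 22479) lie between those of α-cells (18872 and 17899) and PP cells (32380 and 32370). Outside the hormone genes (right) they are 14264 and 16568, against 14447 and 14731 in α-cells and 13991.5 and 17514 in PP cells.

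Set against α-cells, the double-positive cells had higher levels of several genes that PP cells also held. Summed UMIs were expressed as CPM (counts per 1000000 UMIs), and a gene counted as higher or lower when its CPM differed at least 2-fold in the same direction in both libraries. Of 9221 genes, 45 were higher (0.488%) and 63 lower (0.683%). The median gene had a log2 ratio of -0.20 and -0.16, over totals that include hormone UMIs. With totals that leave out hormones and mitochondrial genes the medians were -0.01 and -0.03, and 75 genes were higher and 51 lower.

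The largest ratios were in Tspan8, Pyy, Limch1, Sorcs3, Folr1, Bnip5, Chrm3, Fstl4, Fgb and Nkain2. Pyy per cell ran from 1.51 over a median of 335 to 1950 UMIs per 10000 in control double-positive cells and from 37.7 over 371 to 1841 in the other library. The α-cell medians of Pyy were 29.1 and 28.2, and those of PP cells 995 and 885. Summed, Pyy stood 7.08-fold and 8.30-fold above α-cells and 2.11-fold and 1.81-fold below PP cells. Tspan8, a tetraspanin of the cell surface, stood at 262 CPM (248 to 277) and 227 CPM (215 to 240), 11.9-fold and 8.76-fold above α-cells and 2.76-fold and 2.75-fold below PP cells. Folr1, a folate receptor, stood at 76.2 and 58.7 CPM, 7.04-fold and 5.18-fold above α-cells. Chrm3, the muscarinic M3 receptor for acetylcholine, stood at 189 and 350 CPM, 4.50-fold and 5.00-fold above α-cells. In Pyy, Tspan8, Folr1 and Chrm3 the double-positive cells lay between the other groups. Fstl4 stood above PP cells in the library labelled TBL/RβKO.

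Fgb encodes the fibrinogen β chain, a liver plasma protein whose message also marks PP cells. It was found in 42 of 187 control double-positive cells (22.5%) and in 84 of 211 (39.8%) of the library labelled TBL/RβKO. PP cells held it in 26.9% and 44.4%, α-cells in 6.56% and 11.5%, and 0 of 152 and 0 of 246 non-endocrine cells had a Fgb UMI. Its summed level was 40.7 CPM (35.2 to 46.8) and 179 CPM (168 to 190). This was 4.42-fold and 5.99-fold above α-cells and also 1.99-fold and 2.11-fold above PP cells, so the cells with both hormones had the highest Fgb of the 3 groups in each library. After every cell was thinned to 5000 UMIs, 10.2% and 21.3% of double-positive cells had a Fgb UMI, against 13.4% and 22.2% of PP cells and 2.3% and 6.1% of α-cells. The share of cells with Fgb was therefore no higher than in PP cells.

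The genes lowest against α-cells were Ccl5, Lgals3, Edil3, Cd74, H2-Ab1, Cryab, H2-Eb1, Thsd7a, C1qb and Anks1b. Cd74, H2-Ab1, H2-Eb1 and C1qb are genes of antigen-presenting cells and macrophages. They stood beside 9 of 961 and 4 of 1169 α-cells with at least 20 UMIs per 10000 of non-endocrine markers, against 0 and 2 double-positive cells. Without these cells 0 of the 4 stayed 2-fold lower in both libraries, with log2 ratios in the weaker library of 0.84 for H2-Ab1, 1.32 for C1qb, -0.38 for Cd74 and -0.22 for H2-Eb1. The 4 macrophage markers summed to 53.0 and 32.7 CPM in double-positive cells, 52.8 and 22.5 CPM in α-cells and 4779 and 2290 CPM in non-endocrine cells. Edil3, which encodes an extracellular matrix protein, stood at 1.65 and 2.61 CPM in double-positive cells and at 21.7 and 23.1 CPM in α-cells, 12.4-fold and 8.58-fold lower. Thsd7a, a thrombospondin-domain membrane protein, stood at 49.7 and 44.2 CPM, against 224 and 210 CPM in α-cells, 4.50-fold and 4.73-fold lower. Thsd7a was on the list of PP-cell genes, but PP cells of these libraries had 3.49 and 8.47 CPM, so here it followed the α-cells.

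Set against PP cells, the double-positive cells were distinguished by α-cell genes. Of 8985 genes, 327 were higher (3.64%) and 41 lower (0.456%), with median log2 ratios over all genes of 0.52 and 0.35. With totals free of hormones and mitochondrial genes the medians were -0.03 and 0.04, and 180 genes were higher and 128 lower, so the excess of higher genes rests in part on the scaling. The leading genes named below kept their direction under both scalings.

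Among the leading genes higher than in PP cells were Hhatl, Gfra3, Slc38a5, Irx1, Slc30a8, Mfap2, Frrs1l, Lama2 and Wnk3. Irx1, an α-cell transcription factor, stood at 43.8 and 35.5 CPM, against 1.94 and 0.967 CPM in PP cells. Slc30a8, the zinc transporter of secretory granules, stood at 1005 and 787 CPM, against 1916 and 1768 CPM in α-cells and 39.5 and 37.5 CPM in PP cells. Slc38a5, an amino-acid transporter of α-cells, stood at 38.2 and 59.0 CPM, against 78.6 and 105 CPM in α-cells and 0.194 and 2.18 CPM in PP cells. Hhatl had 0 UMIs in the control PP cells, so that its control level of 9.91 CPM was at least 17.04-fold higher, with 3 counts over the group as the floor.

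Genes lower than in PP cells were Bmpr1b, Myo3a, Limch1, Unc5d, Kcnc2, Mdga2, Pcsk1, Nhs, Sntg1 and S100a10. Pcsk1, which encodes prohormone convertase 1/3, stood at 11.8 and 18.6 CPM in double-positive cells and at 38.8 and 139 CPM in PP cells, 3.27-fold and 7.42-fold lower. Pcsk2, the convertase that cuts glucagon from proglucagon, stood at 4705 and 4522 CPM, 2.06-fold and 2.32-fold above PP cells and near the α-cell level of 5715 and 5884 CPM. Limch1 stood at 10.3 and 38.6 CPM, against 74.2 and 159 CPM in PP cells and 1.75 and 3.83 CPM in α-cells.

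The lists of known cell-type genes are read against the medians over all genes above, and the lists of α-cell and PP-cell genes differed. Of 11 α-cell genes, 0 were higher and 1 (Ttr) was lower than in α-cells, with medians of -0.75 and -0.70, and 8 were higher and 0 lower than in PP cells, with medians of 2.80 and 2.81. Ttr, which encodes transthyretin, stood at 3041 and 2460 CPM, against 8656 and 5570 CPM in α-cells and 394 and 351 CPM in PP cells. Of 18 PP-cell genes 10 were abundant enough to compare. Against α-cells 3 were higher (Pyy, Tspan8 and Fgb) and 1 lower (Thsd7a), with medians of 0.26 and 0.34. Against PP cells 2 were higher (Sertm1 and Thsd7a) and 2 lower (Tspan8 and Spock1), with medians of 0.75 and 0.11. Over all genes these medians were 0.52 and 0.35. The list thus lay above the median of all genes in the control library and below it in the other.

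Few genes of any kind passed the 2-fold limit, and the transcription factors shared by endocrine cells were not among them. Of 8 on the list, including Pax6 and Isl1, 0 differed 2-fold from α-cells, from PP cells or between the libraries, where shares of 0.18% to 3.64% of all genes did in either direction, so a count of 0 of 8 does not set them apart. Meis2 stood at 722 and 762 CPM, against 657 and 787 CPM in α-cells and 737 and 625 CPM in PP cells. Pdx1, a factor of β-cells that also marks PP cells, stood at 13.2 and 20.0 CPM, 2.22-fold and 4.82-fold above α-cells. Of 9 comparable β-cell genes 1 was higher than in α-cells and 0 were lower. Their median log2 ratio was -0.09 in the control library but 1.63 in the library labelled TBL/RβKO. Against PP cells 1 of 9 was higher and 0 were lower, with medians of 0.26 and -0.89. Of 11 granule and processing genes 0 differed 2-fold from α-cells, and only the convertases Pcsk2 (higher) and Pcsk1 (lower) differed from PP cells. These counts use totals that include hormones. Hormone-free totals lowered the median log2 ratio of all genes against PP cells from 0.52 and 0.35 to -0.03 and 0.04. The call of Pcsk2, close to the 2-fold limit, therefore depends on the scaling.

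Among receptors, 11 were comparable with α-cells, of which 2 were higher and 0 lower. These were Chrm3 and Ffar1, a receptor for long-chain fatty acids at 25.4 and 31.3 CPM in double-positive cells and 12.6 and 13.4 CPM in α-cells. Against PP cells, over totals that include hormones, 3 of 12 were higher and 1 lower. The somatostatin receptor Sstr2 stood at 10.5 and 10.8 CPM, against 0.775 and 2.30 CPM in PP cells. The vasopressin receptor Avpr1b stood at 27.2 and 28.5 CPM, against 5.82 and 5.93 CPM, and the β1-adrenergic receptor Adrb1 at 14.7 and 16.2 CPM, against 5.23 and 1.93 CPM. The galanin receptor Galr1 was the lower, at 4.33 and 7.48 CPM against 10.5 and 43.9 CPM. As for Pcsk1, the PP cells of the library labelled TBL/RβKO were a mixed group. Receptors of both neighbouring cell types were thus found in the double-positive cells. No cell-cycle gene, and no epsilon-cell gene (Ghrl), was abundant enough to compare. Of 5 ER-stress and 5 immediate-early genes 0 differed 2-fold in any of the 3 comparisons.

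Few genes lay at least 2-fold outside the range of the other groups in both libraries, and smaller departures were not counted over all genes. Of 8866 genes compared with both groups, 1 was at least 2-fold above both in each library and 0 were 2-fold below both. The gene was Gpm6a, which encodes a neuronal membrane glycoprotein, at 14.7 CPM (11.4 to 18.5) and 24.5 CPM (20.7 to 28.9), against 5.61 and 11.4 CPM in α-cells and 2.71 and 8.95 CPM in PP cells. In the control library 23 of its 71 UMIs came from 1 cell.

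The levels also graded with Ppy within the group. Double-positive cells were split at 300 and 1000 Ppy per 10000, into 58, 71 and 58 control cells and 79, 86 and 46 cells of the library labelled TBL/RβKO. From α-cells over cells with 50 to 150 Ppy and these bands to PP cells, control Tspan8 stood at 22.1, 47.4, 70.8, 166, 463 and 724 CPM, and in the other library it stood at 25.9, 59.4, 75.1, 181, 527 and 625 CPM. Slc30a8 stood at 1916, 1760, 1517, 1254, 472 and 39.5 CPM in the control library and at 1768, 1496, 1176, 635, 504 and 37.5 CPM in the other. Tspan8 was thus already above α-cells at 50 to 150 Ppy. Irx1, at 66.6 CPM in control α-cells, stood at 70.8, 49.1 and 21.8 CPM in the 3 control bands and at 41.7, 34.0 and 29.4 CPM in the others. Meis2 stood at 657 to 790 CPM over the control α-cells, bands and PP cells and at 625 to 941 CPM over those of the other library. Pyy stood at 22312, 37679 and 82054 CPM in the 3 control bands and at 29736, 58243 and 76424 CPM in the others.

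**Figure D3:**
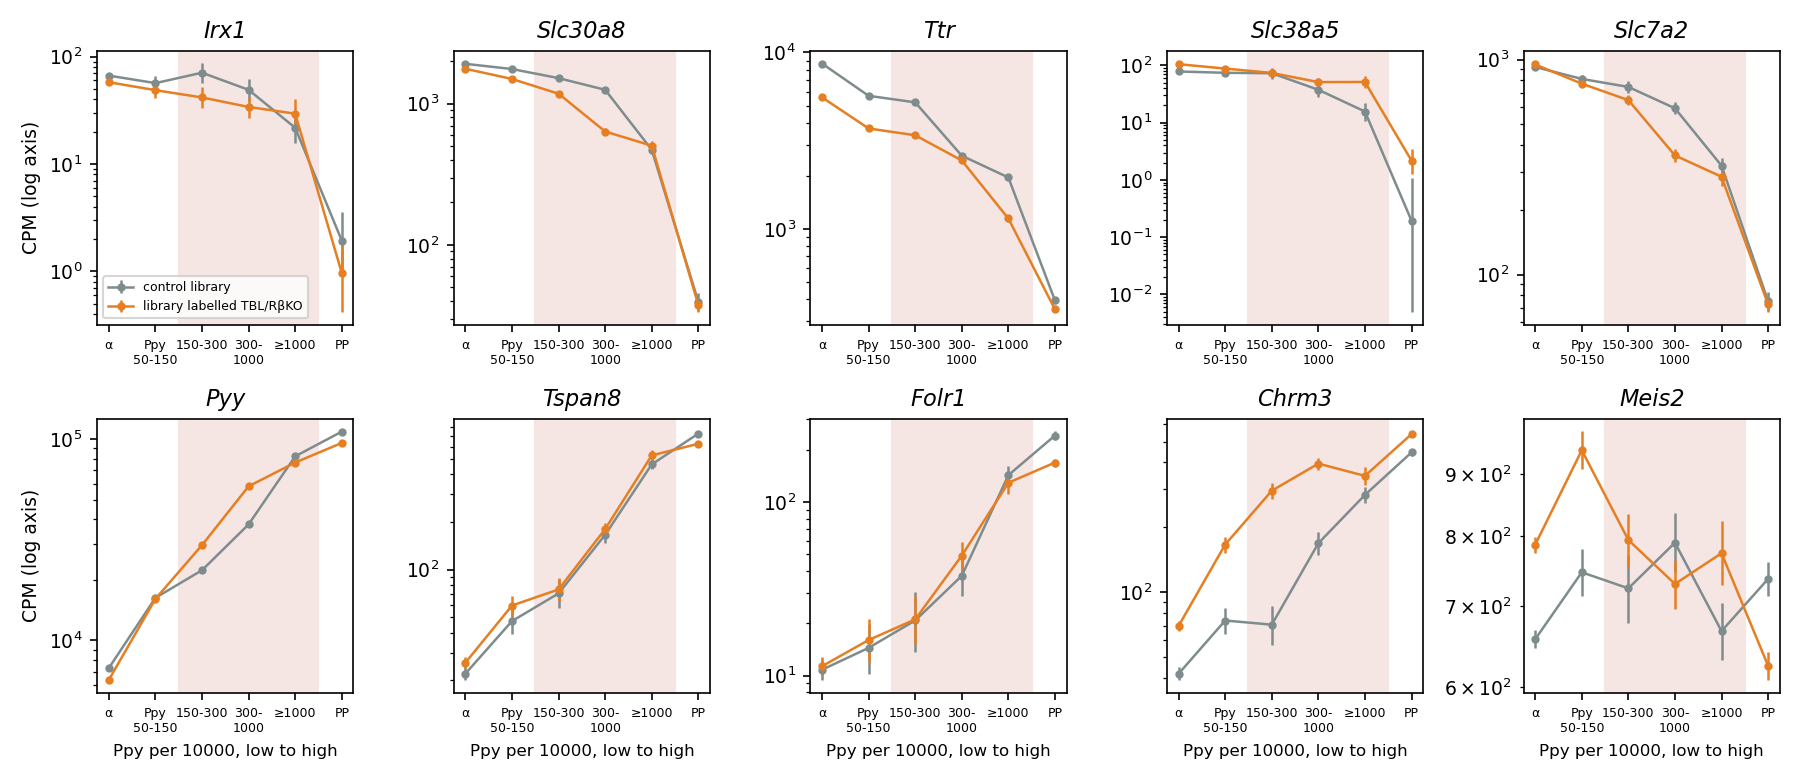
CPM of single genes (log axes, each of its own range; shading marks double-positive cells) along α-cells, cells with 50 to 150 Ppy, the 3 bands of double-positive cells and PP cells, with counting intervals, for each library. Slc30a8 and Ttr run down from α-cells to PP cells (Slc30a8 from 1916 to 39.5 CPM in the control library) and Tspan8 runs up (from 22.1 to 724 CPM).

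Across single double-positive cells the same order was seen as rank correlations with Ppy, which share library, depth and the total that every value is divided by. Spearman's rho was 0.66 and 0.61 for Pyy, 0.65 and 0.60 for Tspan8, 0.52 and 0.46 for Folr1 and 0.43 and 0.28 for Chrm3 (187 and 211 cells). It was -0.60 and -0.42 for Slc30a8, -0.37 and -0.34 for Ttr and -0.47 and -0.34 for Gcg, which the rule also used. Irx2 (-0.10 and -0.07) had the weakest of these. The correlations are descriptions of 2 libraries.

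Markers of opposite slope were looked for in the same barcode. Irx1 and Tspan8, a pair chosen after their values were seen, had UMIs together in 80 of 187 (42.8%) and 73 of 211 (34.6%) double-positive cells, against 17.1% and 13.7% of α-cells and 5.97% and 2.99% of PP cells. After thinning to 5000 UMIs per cell, which left out no cell, the shares were 6.95% (3.75 to 11.6) and 6.64% (3.67 to 10.9), against 1.56% and 2.14% of α-cells and 0 of 134 and 0 of 234 PP cells, which allows shares of up to 2.24% and 1.28%. Thinned Tspan8 was found in 25.9%, 50.7% and 77.6% of control cells along the 3 Ppy bands, and in 26.6%, 44.2% and 78.3% of those in the library labelled TBL/RβKO. Thinned Irx1 was found in 22.4%, 16.9% and 12.1% of control cells and in 19.0%, 22.1% and 6.52% of the others. The joint shares follow the single shares of the pair and were not tested for more or less overlap than those give.

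A position between PP cells (0) and α-cells (1) was computed from CPM for the 201 genes at least 4-fold apart between those groups in both libraries, of which 172 were higher in α-cells and 29 in PP cells. With totals free of hormones and mitochondrial genes there were 162 such genes, 92 higher in α-cells and 70 in PP cells, so the split rests in part on the scaling. The double-positive cells had a median position of 0.528 (quartiles 0.441 to 0.664) in the control library and 0.493 (0.411 to 0.626) in the other, and 0.653 and 0.597 with the hormone-free totals. The genes higher in PP cells lay nearer the α-cell end, at 0.681 and 0.610. Along the 3 Ppy bands the median ran from 0.825 over 0.636 to 0.258 in the control library and from 0.695 over 0.469 to 0.298 in the other. Outside the range of the other groups lay 8 and 5 of the 201 genes over all double-positive cells, but 50 and 16 in the lowest Ppy band and 23 of 207 control genes without cells of 1000 Ppy or more. Genes share cells and totals, so these are descriptions and not replicates.

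**Figure D4:**
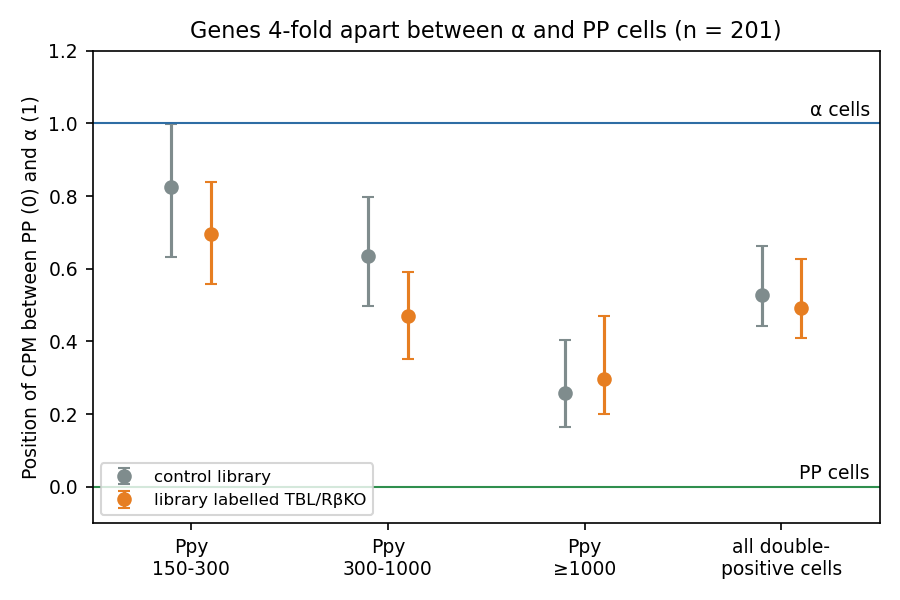
Median position of 201 genes between PP cells (0) and α-cells (1) for the 3 Ppy bands and for all double-positive cells, with bars over the quartiles. It runs from 0.825 and 0.695 in the lowest band to 0.258 and 0.298 in the highest.

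Between the libraries, the double-positive cells of the library labelled TBL/RβKO were first checked for the targeted genes. Cre was counted as 0 UMIs in the control library and as 5 UMIs in 4 of 211 double-positive cells, of 3247 in the whole library. Double-positive cells held 169 CPM of Tbl1x in the control library (157 to 181) and 261 in the other (248 to 275). Of Tbl1xr1 they held 34.9 CPM (29.8 to 40.6) and 77.6 (70.6 to 85.2), so both genes were higher in the library labelled as deleted. Where the counted 3′ ends lie relative to the deleted part was not examined, so these counts do not show whether the genes were deleted. Ins1-Cre is directed to β-cells. The cause of the higher counts was not tested. PP cells had 83.0 and 301 CPM of Tbl1x and α-cells 293 and 330 CPM.

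Of 8890 genes, 220 were at least 2-fold higher (2.47%) and 16 lower (0.18%) in the double-positive cells of the library labelled TBL/RβKO, and the median log2 ratio was 0.14. With totals free of hormones and mitochondrial genes the median was -0.01, and 205 genes were higher (81.0% of those that differed, against 93.2%) and 48 lower. Single cells held nearly all UMIs of several of the leading higher genes. Among them were Mgp, Sparc, Vim, S100a6, Pigr, Col1a1, Prr29, Tagln and Il11. Of the UMIs in the library labelled TBL/RβKO, 892 of 906 for Mgp, 106 of 109 for Col1a1, 105 of 106 for Tagln and 191 of 194 for Il11 lay in 1 cell. Mgp, Col1a1, Tagln and Sparc are genes of stromal cells. The 5 stromal markers summed to 8.88 CPM in control double-positive cells (3 of the markers at 0) and 220 CPM in the others, and 2 of 211 cells had at least 20 UMIs per 10000 of non-endocrine markers. Without these cells the log2 ratio of Mgp was 0.94 instead of 6.88 and that of Il11 0.27 instead of 6.04.

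S100a6, Pigr and Prr29 were spread over more cells. Pigr, the receptor that carries antibodies across epithelia, was found in 1 control double-positive cell (1 UMI) and in 26 cells of the library labelled TBL/RβKO (176 UMIs, 30.6 CPM). Prr29 had 0 UMIs in the control cells and 108 UMIs in 26 cells of the other library, at least 30.4-fold higher. S100a6, a calcium-binding protein, had 7 UMIs in 6 control cells and 605 UMIs in 42 cells, with 178 of them in 1 cell. PP cells of the library labelled TBL/RβKO held these 3 as well, at 69.5, 44.1 and 165 CPM.

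Pigr and Prr29 lay mainly in double-positive cells with high Iapp, with 150 of 176 and 96 of 108 UMIs there, and S100a6 in nearly equal parts in them (303 UMIs) and in the rest (302 UMIs). Iapp encodes islet amyloid polypeptide, a hormone of β- and δ-cells. Its median per double-positive cell was 13.2 UMIs per 10000 in the control library and 8.04 in the other, but its sum was 1926 and 5803 CPM. At least 60 per 10000, a limit set after the values had been seen, was found in 7 of 187 (3.74%, 1.52 to 7.56) and 25 of 211 (11.8%, 7.82 to 16.99) double-positive cells. PP cells passed it in 8 of 134 (5.97%) and 60 of 234 (25.6%), α-cells in 1.98% and 0.599%, and non-endocrine cells in 1.32% and 0.813%. The 25 cells had a median of 549 Gcg, 350 Ppy, 468 Pyy and 144 Iapp per 10000, and their Ppy went no higher than 844. They were also deep, with a median of 38329 UMIs and 6849 detected genes, 19 of the 25 at 6000 genes or more, and 7 of the 25 marked by the doublet score, against 10 of all 211. Whether they are pairs of cells was not tested.

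**Figure D5:**
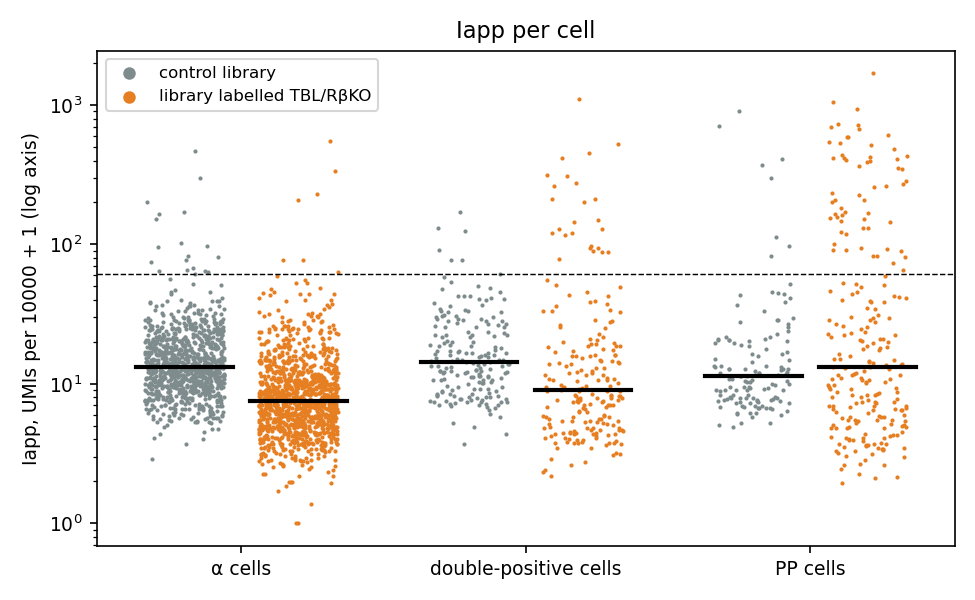
Iapp per cell (UMIs per 10000 plus 1, log axis) in α-cells, double-positive cells and PP cells of each library; black bars are medians and the dashed line is at 60. Above the line lie 25 of 211 double-positive and 60 of 234 PP cells of the library labelled TBL/RβKO, and in the control library 7 of 187 and 8 of 134.

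In the library labelled TBL/RβKO the 25 high-Iapp cells had 198 CPM of Glp1r, the receptor for the incretin GLP-1, against 23.8 CPM in the other 186. Prr29 stood at 76.8 and 2.67 CPM, Pigr at 120 and 5.79 CPM, and Chga, which encodes the granule protein chromogranin A, at 12041 and 3065 CPM. Tbl1x stood at 482 and 200 CPM and Tbl1xr1 at 150 and 57.6 CPM. Tspan8 was lower in the high-Iapp cells, at 127 and 255 CPM. Without the high-Iapp cells of both libraries, 138 genes were higher and 19 lower between the libraries. The log2 ratio of Glp1r was then 0.82 instead of 2.17, that of Tbl1x 0.27 instead of 0.63 and that of Pdx1 0.01 instead of 0.59. That of Iapp, which chose the cells left out, was -0.59 instead of 1.59 and is a description only.

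Fgb was higher in the library labelled TBL/RβKO with and without those cells. The log2 ratio was 2.13 (1.91 to 2.36) over all double-positive cells, 2.25 without the high-Iapp cells, 2.43 without the highest cell of each library and 2.73 with cells of fewer than 6000 genes. The ratios were 1.69 in α-cells and 2.05 in PP cells, so Fgb differed in the same direction in all 3 groups.

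The 10 genes lowest in the library labelled TBL/RβKO were Mafa, Upk3a, Fstl4, Gdf15, Prr16, Slc2a2, Kcnn2, Cd200l1, Tfpi and Atoh8. Mafa, a β-cell transcription factor, stood at 17.8 CPM (14.2 to 21.9) and 0.522 CPM (0.108 to 1.53). Non-endocrine cells held 15.8 and 6.88 CPM of Mafa, and Slc2a2, the β-cell glucose transporter at 11.4 and 3.48 CPM, likewise stood at 13.5 and 5.35 CPM in them. Mafa in the control library differed from the non-endocrine level by less than the counting intervals (12.1 to 20.3 CPM in non-endocrine cells). The other levels lay below those of non-endocrine cells. Mafa was held by 32.2% of non-endocrine cells in the control library but 3.25% in the other, where its level rests on few cells. Whether these levels are free RNA was not tested. Upk3a, an uroplakin, stood at 26.0 CPM (21.7 to 31.0) and 2.61 CPM (1.46 to 4.31), against 2.59 CPM and 0 UMIs in non-endocrine cells. In α-cells Upk3a stood at 21.6 and 2.71 CPM. Gdf15, a stress-responsive secreted factor, stood at 29.5 and 9.57 CPM in double-positive cells and at 9.62 and 8.88 CPM in α-cells, and Fstl4 at 63.4 and 21.9 CPM. The log2 ratio of Gdf15, -1.62, was -0.59 with under 6000 detected genes and -0.89 without cells of 1000 Ppy or more, no longer 2-fold. Cd200l1 stood at 110 and 52.4 CPM, and in PP cells at 185 and 77.8 CPM.

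By list, 0 of 11 α-cell genes differed 2-fold between the libraries (median log2 ratio -0.18, against 0.14 over all genes) and 2 of 10 PP-cell genes, Fgb and Cartpt, were higher. Cartpt had 0 UMIs in the control cells, and 48 of its 80 UMIs in the others lay in 1 cell. Of 10 β-cell genes 3 were higher (Iapp, Ucn3 and Glp1r) and 2 lower (Mafa and Slc2a2), with a median of 0.43. The higher calls were lost with under 6000 detected genes, at log2 ratios of 0.47, -1.26 and 0.80. Without high-Iapp cells Ucn3 and Glp1r were also under the 2-fold limit, at 0.99 and 0.82. That filter acts on Iapp itself, so the Iapp ratio of -0.59 there is no check of its call. The progenitor-associated genes Gast and Aldh1a3 were higher, but 338 of the 363 Gast UMIs and 60 of the 60 Aldh1a3 UMIs lay in 1 cell each. None of 11 granule genes and none of the 11 comparable genes on the receptor list, which does not hold Glp1r, differed 2-fold in double-positive cells, although Chga stood at 2908 and 5019 CPM and Chgb at 708 and 1336 CPM, both below the 2-fold limit.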

How the data were processed

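The authors deposited unnormalised UMI counts, 1 matrix per library, from Chromium 3′ libraries (chemistry 3.1) processed by Cell Ranger 7.1.0 with GRCm39 and mm39 in the submitters' processing notes. Barcodes of any depth and likely doublets are still in them. The files hold 7067 and 5833 barcodes with 241434108 and 185062206 UMIs, of which 4747 and 4179 barcodes were kept (double-positive sums of 4844514 and 5745039 UMIs). The upper limit of 6000 detected genes used in the study was an alternative. The libraries share 14 barcode sequences, 1 of them in a double-positive cell.

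Counts were summed per library and group without a test across samples. Compared genes had at least 10 CPM in 1 sum and 30 UMIs in both together. Ratios used a prior of 0.5 UMIs and exact binomial intervals, levels exact Poisson intervals, shares Clopper-Pearson and their differences Newcombe intervals. The ratio step was tested on simulated counts. Scrublet (scanpy 1.11.5) gave doublet scores to barcodes above 500 genes. The threshold it set by itself marked 122 (1.88%) and 2 (0.0374%) barcodes and had not worked in the library labelled TBL/RβKO, so the highest scores were marked at 0.8% per 1000 barcodes (334 and 231 barcodes) and kept in the main values. Python 3.11.15, numpy 2.4.6, scipy 1.17.1, pandas 2.3.3 and matplotlib 3.10.9 were used.

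The cells, gene lists and comparisons were chosen with earlier results of these data known. Named genes are the 10 highest and 10 lowest of each comparison, ranked against α- and PP cells by the smaller ratio of the 2 libraries and between libraries by the interval bound nearest no difference, and up to 6 of a list. Some genes that this rule names are not reported here. Gpm6a and the genes given for high-Iapp cells were named after their values had been seen.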

Additional observations from a re-analysis of the deposited data

Results flagged for a closer look

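The log2 ratio of double-positive cells over α-cells had opposite signs in the libraries, by at least 1 in each, for 16 genes. The difference between the libraries was not tested. In the library labelled TBL/RβKO it was 4.85 for Emcn, 6.62 for Esm1 and 4.27 for Flt1, genes of endothelial cells, against -5.07, -3.97 and -7.03 in the control library. It was 1.48 for Bgn, 1.15 for Col4a2, 1.66 for Mgp, 1.12 for Sparc, 4.13 for Tagln, 2.18 for Tpm2, 4.37 for Igfbp3, 1.47 for Lgals1 and 2.31 for Gng11, most of them genes of stromal or vascular cells. It was 2.19 for S100a6, 1.07 for Hmox1, 1.97 for Nupr1 and 2.54 for Cartpt, of whose 80 UMIs 48 lay in 1 double-positive cell. Endothelial markers summed to 0.826 CPM in control and 29.4 CPM in the other double-positive cells, and to 38.5 and 1.94 CPM in α-cells. Stromal markers summed to 8.88 and 220 CPM, and to 35.1 and 102 CPM in α-cells. Their part in these ratios was not tested.

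Cre, which no comparison above uses, had 5 UMIs in double-positive cells of the library labelled TBL/RβKO and 0 in the control library.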

How the results depend on the processing

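No paired analysis was possible because the groups share only 1 replicate number, and no replicate could be left out with 1 library per group. The difference in share over endocrine cells, 1.55 points, was 0.525 with both hormone limits doubled, -0.568 over Gcg-positive and -13.1 over Ppy-positive cells. Between the libraries, the 220 higher and 16 lower genes became 123 and 36 with under 6000 detected genes, 205 and 48 with hormone-free totals and 766 and 311 over every gene with a UMI in each sum. The higher were 138 without high-Iapp cells, and the lower 27 with doubled limits and 28 without cells of 1000 Ppy or more. Against α-cells, the 45 higher were 75 with hormone-free totals, 256 over every gene and 24 without cells of 1000 Ppy or more. The 63 lower were 164 over every gene, 113 with doubled limits and 37 without cells of 1000 Ppy or more. Against PP cells, the 327 higher were 722 with under 6000 genes, 180 with hormone-free totals, 557 over every gene, 498 without high-Iapp cells and 498 without cells of 1000 Ppy or more. The 41 lower were 128 with hormone-free totals and 131 over every gene. The control position was 0.724 without cells of 1000 Ppy or more.

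Of log2 ratios of single genes, 561 under the alternatives moved little, and 127 moved more but kept their sign. The sign turned for C1qb (1.32 without cells with non-endocrine markers, 1.30 without the highest cell), H2-Ab1 (0.028 with under 6000 genes, 0.87 without marked doublets, 0.84 without cells with non-endocrine markers) and Limch1 against α-cells (-0.18 without cells of 1000 Ppy or more). Between the libraries it turned for Col1a1 (-0.14) and Tagln (-0.14), whose UMIs were then equal in number, and Ucn3 (-1.26) with under 6000 genes. The sign also turned for Il11 (-0.71) with doubled limits and for Iapp (-0.59) without high-Iapp cells, a filter on Iapp itself. The causes were not tested. Alternatives that leave out single cells, high-Iapp cells, cells with non-endocrine markers or cells of 1000 Ppy or more were chosen after seeing the data.

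Each value describes 1 library of pooled islets per group, and intervals cover counting error only. Low genes such as Sorcs3, at 19 and 64 UMIs in all double-positive cells, are limited by depth. Deletion in α- or PP cells was not assessed from 3′ counts per gene.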

Other observations

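The filter itself set aside 12 barcodes in each library that passed all 4 hormone limits but not the limits on detected genes or mitochondrial UMIs. Nxph1, which encodes a neurexophilin, stood at 556 and 597 CPM in double-positive cells of the control library and the library labelled TBL/RβKO, against 1388 and 1578 CPM in α-cells and 51.8 and 72.4 CPM in PP cells. It was chosen after its values were seen, and it gave a rank correlation with Ppy of -0.40 and -0.19 across double-positive cells, a description of 187 and 211 cells that share library and depth.

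Mitochondrial UMIs per double-positive cell had a median of 2.41% and 3.03%, between those of α-cells (3.05% and 3.78%) and PP cells (1.63% and 2.37%) in each library.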
